A study of Mus musculus with 10 samples.

Results

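Antigen processing and presentation genes were followed in mouse heart arrays through 10 members: 7 of the class I pathway (Tap1, Tap2, Tapbp, B2m, Psmb8, Psmb9 and Psmb10) and 3 of the class II pathway (Cd74, H2-Aa and H2-Ab1). Each was taken as the probe set that the platform annotation pairs with that symbol alone, out of 19938 genes measured in this way. All 10 members were found, each with 1 such probe set. Another 2 probe sets list Tapbp together with Rps3a1 and were not used.

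RNA came from ventricular cardiomyocytes, the muscle cells of the lower heart chambers, and from whole hearts. The mice were wild type (WT) or carried a knockdown (KD) of VAChT, the vesicular acetylcholine transporter, which the series title writes as KDHOM. Cardiomyocytes gave 3 arrays of each genotype, and whole hearts gave 2 of each. All mice were untreated C57BL/6 males aged 3 months, and for each array the RNA of 2 samples was combined. The labels do not name the animals behind the arrays of a group, so p-values measure the spread between arrays, which may be technical.

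Of the members, 7 lie on chromosome 17 (GRCm38.p6). In the RefSeq annotation, 6 of them share 106 kb of the mouse major histocompatibility region, from Psmb9 (chr17:34182030-34187330) through Tap1, Psmb8, Tap2 and H2-Ab1 to H2-Aa (chr17:34282744-34287823). Tapbp lies nearby at chr17:33919478-33929290. B2m is on chromosome 2, Psmb10 on chromosome 8 and Cd74 on chromosome 18. Psmb9 and Tap1 run away from each other, with 225 bases between their annotated starts.

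Class I molecules are made by nearly all nucleated cells and show peptides from proteins inside the cell. The proteasome cuts the proteins, the TAP transporter carries the peptides into the endoplasmic reticulum, and the peptide is loaded onto a heavy chain paired with beta-2 microglobulin. Class II molecules are made mainly by macrophages, dendritic cells and B cells and show peptides from material taken up from outside; the invariant chain, encoded by Cd74, guards their groove until they reach the endosome. Interferon gamma is known to raise genes of both pathways.

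Values are log2 intensities as deposited, and a difference of 1 on this scale is a 2-fold difference. The medians of the named genes were 6.19 to 6.27 in the cardiomyocyte arrays and 7.54 to 7.59 in the heart arrays, so the tissues were apparently normalized separately. KD was therefore compared with WT within a tissue, with the spread estimated over all 10 arrays. The difference between these within-tissue KD effects was tested too. Differences in level between the tissues are described with no test. The number of arrays limited precision: over all genes the 95% confidence intervals for KD against WT had a median distance from centre to bound of 0.25 in cardiomyocytes and 0.31 in hearts. Slc18a3, which encodes VAChT, differed between KD and WT by 0.16 (SE 0.16) in cardiomyocytes and 0.05 (SE 0.19) in hearts, with a limma adjusted p of 1 in both. Which part of Slc18a3 is altered in these mice is not given in the sources used here, so this checks neither label. Cardiomyocyte markers such as Myh6 and Tnnt2 averaged 5.76 to 7.22 above the array median in all arrays. Endothelial markers averaged 2.67 to 2.99 above it in the cardiomyocyte arrays and 2.74 to 3.08 in the hearts. On this scale 4 of 6 endothelial markers lay lower in WT cardiomyocytes than in WT hearts (median -0.23). With all arrays quantile normalized together, 6 of 6 lay lower (median -0.97). KD heart replicate 1 stood apart: its 7 thymocyte markers averaged 3.24 above the WT heart mean, against 0.21 in KD heart replicate 2. Among them Ptcra did not stand apart, at 7.66 against 7.80 in KD heart replicate 2 and 7.52 and 7.55 in WT hearts. The T cell markers of KD heart replicate 1 averaged 2.15 above the WT heart mean. The thymic epithelial genes Ccl25 and Prss16 were 10.72 and 10.41, against 7.11 and 6.84 in KD heart replicate 2. The other thymic epithelial genes were not raised: Foxn1, Psmb11 and Aire were 7.26, 7.50 and 7.75, against 7.34, 7.59 and 7.85. The members' KD heart differences and the list counts in hearts are therefore given without KD heart replicate 1 too.

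Sequence before the start was in the RefSeq table (GRCm38.p6) for 7 of the 10 members, and 3 stretches are printed: the interval that Psmb9 and Tap1 share, and the promoters of B2m and H2-Aa, a class I and a class II pathway gene with the same pair of short motifs. All run 5′ to 3′ and end at the base before a gene start. The first is chr17:34187331-34187555 on the plus strand, in the direction of Tap1. The B2m stretch is chr2:122147527-122147686 on the plus strand, and the H2-Aa stretch is chr17:34287824-34287943 on the minus strand. Capitals mark matches, on either strand, to TGACG (the core of the X2 box), ATTGG (the Y box, CCAAT on the other strand) and GAAANNGAAA (the core of an interferon-stimulated response element).
Psmb9-Tap1: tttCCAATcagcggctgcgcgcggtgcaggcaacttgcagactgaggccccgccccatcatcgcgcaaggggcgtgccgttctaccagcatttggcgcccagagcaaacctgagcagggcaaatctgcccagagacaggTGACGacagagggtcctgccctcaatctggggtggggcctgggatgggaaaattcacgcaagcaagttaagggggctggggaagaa
B2m: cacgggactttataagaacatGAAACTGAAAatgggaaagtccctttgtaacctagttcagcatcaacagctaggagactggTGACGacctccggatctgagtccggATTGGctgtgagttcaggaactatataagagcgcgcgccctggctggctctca
H2-Aa: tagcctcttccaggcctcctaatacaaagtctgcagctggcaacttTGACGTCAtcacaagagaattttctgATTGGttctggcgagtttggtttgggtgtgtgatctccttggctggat

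In B2m the TGACG match began 78 bases before the start and the ATTGG match 53 bases before it; in H2-Aa they began 74 and 48 bases before it. This order, TGACG followed after 10 to 30 bases by ATTGG on the same strand, was in the 250 bases before the start of 210 of 32817 windows of the table (0.64%). Either motif alone was common, TGACG in 17.7% and ATTGG in 33.8% of windows; H2-Aa holds TGACG on both strands, at overlapping positions. The Psmb9-Tap1 interval held both motifs, but not in that order and spacing. The GAAANNGAAA motif was in 2.97% of windows and, among the 7 members, in B2m. TTCNNNGAA, the letters of a gamma-activated site, was in 7.01% of windows and, among them, in Psmb8, where the same bases match on both strands. These motifs were chosen with the sequences in view, and a match does not show that a factor binds there.

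The first comparison was of the tissues, where the classes parted. The 3 class II members lay far lower in cardiomyocytes than in hearts, by 5.3-fold to 12.5-fold between the WT means once each array was set to its median, and by 7.2-fold to 16.7-fold after all arrays were quantile normalized together. The class I members lay between 1.59-fold lower and 2.28-fold higher in cardiomyocytes on the first scale, with 4 of 7 lower. After quantile normalization they lay between 3.11-fold lower and 1.55-fold higher, with 5 of 7 lower. For 4 of the 7 every quantile-normalized cardiomyocyte array lay below every heart array, as did 5609 of 19938 genes. The labels name different labelling manuals for cardiomyocyte and heart RNA, so tissue and labelling cannot be told apart. In bulk RNA, fewer cells of a type and less RNA per cell cannot be told apart either.

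H2-Aa encodes the alpha chain of the class II molecule I-A. Its log2 intensity was 5.68, 5.02 and 5.66 in WT cardiomyocytes, 5.20, 5.29 and 4.61 in KD cardiomyocytes, 10.51 and 10.34 in WT hearts, and 11.15 and 10.20 in KD hearts. All 6 cardiomyocyte values lay below their array medians and all 4 heart values at least 2.61 above theirs. After centring, the WT difference was -3.64, and 0.0652% of all genes had a lower one.

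H2-Ab1 encodes the beta chain that pairs with it. It was 6.51, 5.66 and 6.11 in WT cardiomyocytes, 5.50, 5.87 and 5.50 in KD cardiomyocytes, 10.71 and 10.36 in WT hearts, and 11.28 and 10.20 in KD hearts. The centred WT difference was -3.11, with 0.145% of genes lower. Cd74, the invariant chain, was 6.45, 5.67 and 6.45 in WT cardiomyocytes, 5.57, 5.70 and 5.65 in KD cardiomyocytes, 9.97 and 9.87 in WT hearts, and 10.58 and 9.82 in KD hearts. Its centred WT difference was -2.41, with 0.336% of genes lower. In all 3 genes every cardiomyocyte array lay below every heart array, under both scalings. Over all genes 25.5% did so after centring, and 5609 of 19938 after quantile normalization.

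The peptide supply and assembly genes of class I were close in the tissues by comparison. B2m, the light chain of every class I molecule, was the lowest of the class I members relative to hearts. It was 11.73, 10.74 and 12.04 in WT cardiomyocytes, 11.41, 11.12 and 11.38 in KD cardiomyocytes, 13.35 and 13.64 in WT hearts, and 13.43 and 13.57 in KD hearts. The centred WT difference was -0.67, with 11.7% of genes lower. The quantile-normalized one was -1.64, a 3.11-fold difference, with 2.07% of genes lower. B2m was among the brightest genes in both tissues, at or above the 97.8th percentile of named genes on every array.

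Tap1 and Tap2 encode the partner chains of the peptide transporter, and they did not go together between the tissues. Tap1 was 7.02, 6.50 and 7.33 in WT cardiomyocytes, 6.60, 6.50 and 6.42 in KD cardiomyocytes, 8.42 and 8.26 in WT hearts, and 8.52 and 7.93 in KD hearts. Its centred WT difference was -0.07, and the centred arrays of the tissues overlapped. Tap2 was 7.68, 7.61 and 7.56 in WT cardiomyocytes, 7.28, 7.51 and 7.29 in KD cardiomyocytes, 8.19 and 8.18 in WT hearts, and 8.49 and 8.09 in KD hearts. Its centred WT difference was 0.75, with every cardiomyocyte array above every heart array, and 0.41 after quantile normalization, where the arrays overlapped. Over all genes 39.0% had every centred cardiomyocyte array above every heart array.

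Tapbp, tapasin, tethers the empty class I molecule to the transporter. It was 8.72, 8.80 and 8.86 in WT cardiomyocytes, 8.66, 8.58 and 8.62 in KD cardiomyocytes, 9.97 and 9.97 in WT hearts, and 9.98 and 10.11 in KD hearts. Its tissue difference turned with the scaling, from 0.15 after centring to -0.58 after quantile normalization.

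Psmb8, Psmb9 and Psmb10 are the catalytic subunits of the immunoproteasome, which take the places of Psmb5, Psmb6 and Psmb7 of the constitutive proteasome. Psmb8 was 5.67, 5.62 and 5.66 in WT cardiomyocytes, 5.67, 5.56 and 5.83 in KD cardiomyocytes, 7.36 and 7.40 in WT hearts, and 7.82 and 7.39 in KD hearts. It lay below the array median on every cardiomyocyte array, so its signal there was dim. Psmb9 was 7.56, 7.52 and 7.78 in WT cardiomyocytes, 7.55, 7.50 and 7.53 in KD cardiomyocytes, 9.19 and 9.27 in WT hearts, and 9.41 and 9.28 in KD hearts. Both lay lower in cardiomyocytes under both scalings, with no overlap of arrays: by 0.41 and 0.29 on the log2 scale after centring, and by 0.32 and 0.81 after quantile normalization. Psmb10 was the exception. It was 8.78, 8.54 and 8.71 in WT cardiomyocytes, 8.83, 8.67 and 8.78 in KD cardiomyocytes, 8.85 and 8.77 in WT hearts, and 8.81 and 8.82 in KD hearts. With nearly equal deposited values, it lay 2.28-fold higher in cardiomyocytes after centring and 1.55-fold higher after quantile normalization, with no overlap of arrays under either. Such separation was common over all genes. After centring, 25.5% had every cardiomyocyte array below every heart array and 39.0% had every one above. After quantile normalization these were 5609 and 6102 of 19938 genes.

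**Figure D1:**
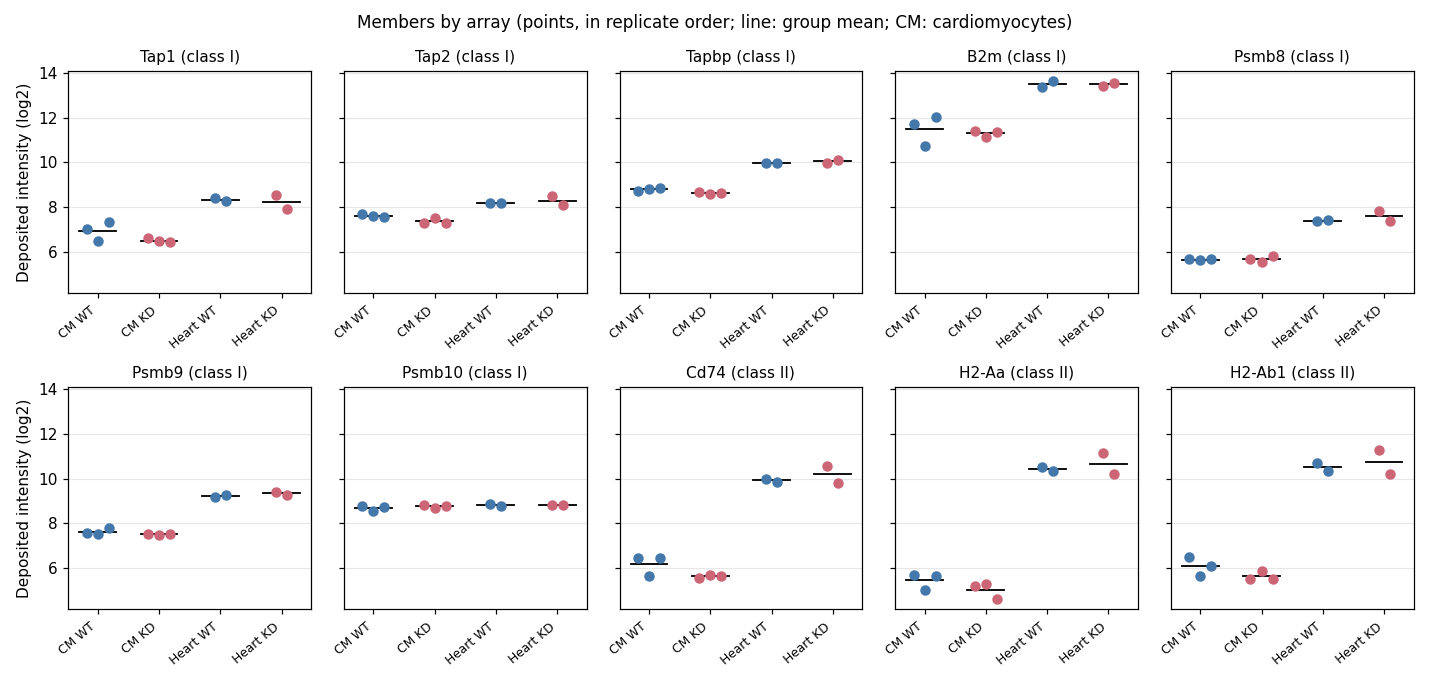
Deposited log2 intensity (vertical axis) of each of the 10 members in each array, by group; points are arrays, blue for WT and red for KD, and the line is the group mean. H2-Aa, H2-Ab1 and Cd74 lie near or below 6.5 in all cardiomyocyte arrays and at 9.82 or above in all heart arrays, while Psmb10 lies between 8.54 and 8.85 throughout.

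**Figure D2:**
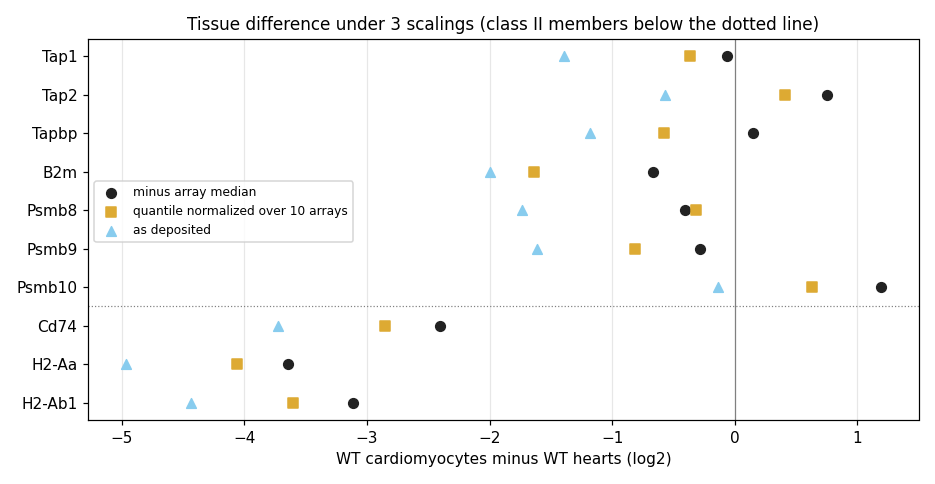
Mean of the WT cardiomyocyte arrays minus mean of the WT heart arrays (log2, horizontal axis) for each member, with values set to the array median, quantile normalized over all 10 arrays, or as deposited. The class II members stand apart from the class I members under each scaling, and Tapbp changes sign between centring and quantile normalization. As deposited, Tap2 and Psmb10 also turn, to -0.57 and -0.13, where the median of all genes is -1.20.

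Other genes of the pathways were taken as lists. Of the 16 measured genes of the class I list, 8 lay higher and 8 lower in WT cardiomyocytes, with a median of -0.01 (6 and 10, median -0.34, after quantile normalization; over all genes the medians were 0.12 and 0.01). Psme2, a subunit of the interferon-inducible proteasome activator, lay 3.36-fold higher and the chaperone Canx 3.99-fold higher, while the class I gene H2-Q4 lay 3.97-fold lower (2.22-fold, 2.11-fold and 5.61-fold after quantile normalization). H2-K1 and H2-D1, the classical heavy chains, share probe sets with each other and were not measured singly. Of the 14 measured genes of the class II list, 9 lay lower, with a median of -0.66 (11, median -0.59, after quantile normalization). Ctss, cathepsin S, which cuts the invariant chain, differed by -3.43, and Ifi30, a lysosomal thiol reductase, by -1.59. H2-Eb1, a class II beta chain, differed by -1.30. Ciita, the master activator of class II genes, differed by 0.08, between means of deposited values below the array medians in both tissues. The constitutive proteasome list, which holds core subunits and the activators Psme3 and Psme4, went the other way from the class II genes: 15 of 16 lay higher in cardiomyocytes after centring (median 1.31) and 11 of 16 after quantile normalization (median 0.66). Psmb5 differed by 3.33, Psmb6 by 1.24 and Psmb7 by 0.10, or 2.51, 0.56 and -0.75 after quantile normalization.

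Markers of the cells that make class II molecules were lower in cardiomyocytes as well. All 12 macrophage markers lay lower in WT cardiomyocytes, with a median of -2.09. For 10 of them every centred cardiomyocyte array lay below every heart array, as did 25.5% of all genes. The macrophage mean was 0.81 to 0.24 below the array median in cardiomyocytes and 1.22 to 1.40 above it in hearts. All 5 B cell markers lay lower, with a median of -0.90, and 6 of 7 dendritic cell markers, with a median of -0.28. The dendritic cell difference was not particular to that list. Of thymocyte markers 6 of 7 lay lower (median -0.20), of thymic epithelial genes 5 of 5 (median -0.18) and of neutrophil markers 3 of 5 (median -0.23). All 6 fibroblast markers lay lower too, with a median of -2.03. The part of these cells in the class II difference was not tested.

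The second comparison asked how the KD genotype goes with these genes in cardiomyocytes. No member passed over all genes. The class II members lay lower in KD, 3 of 3, with a median difference of -0.47, and the class I members lay lower in 5 of 7, with a median of -0.17; over all genes the median was 0.00. The WT arrays were spread widely: as a deviation from their own mean, the class II mean was 0.30 in WT replicate 1, 0.16 in WT replicate 3 and -0.46 in WT replicate 2, and the KD arrays lay at -0.49, -0.29 and -0.66. WT replicate 2 thus lay among the KD arrays.

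Cd74 had the smallest unadjusted p of the members. Its mean was 5.64 ± 0.07 over the KD arrays and 6.19 ± 0.45 over the WT arrays (SD, n = 3 per genotype). The difference was -0.55 (SE 0.21, 95% confidence interval -1.0045 to -0.0912), with an adjusted p of 1 in limma. The KD arrays were all below WT replicates 1 and 3, but overlapped with WT replicate 2. H2-Ab1 differed by -0.47 (SE 0.25) and H2-Aa by -0.42 (SE 0.25), and their groups overlapped too. Without WT replicate 2 the differences were -0.81 for Cd74, -0.69 for H2-Ab1 and -0.64 for H2-Aa, and without WT replicate 1 they were -0.42, -0.26 and -0.31. All of the KD means lay below the cardiomyocyte array medians, so these are differences between dim signals. Without WT replicate 2 the class II median was -0.69, and without WT replicate 1 it was -0.31.

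Among class I members Tap1 differed most, by -0.44 (SE 0.19, 95% confidence interval -0.86 to -0.03), with an adjusted p of 1 in limma. Leaving out WT replicate 2 gave -0.67, and leaving out WT replicate 3 gave -0.25. Its KD arrays lay at 6.42 to 6.60 and WT replicate 2 at 6.50, between them. Tap2 and Tapbp were the members with no overlap: every KD array lay below every WT array, with differences of -0.25 (SE 0.12) for Tap2 and -0.17 (SE 0.09) for Tapbp. Over all genes 3.21% had every KD array below every WT array. B2m differed by -0.20 (SE 0.24), by -0.58 without WT replicate 2 and by 0.07 without WT replicate 3.

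The immunoproteasome subunits lay near 0, at 0.04 (SE 0.12) for Psmb8, -0.10 (SE 0.10) for Psmb9 and 0.08 (SE 0.10) for Psmb10. Psmb9 and Tap1, which start on either side of the interval printed above, had differences of the same sign and unlike size. The genes were not tested against each other. Relative to the WT mean the KD arrays lay at -0.35, -0.45 and -0.52 in Tap1 and at -0.08, -0.12 and -0.09 in Psmb9. In WT replicate 2 Tap1 was at -0.45 and Psmb9 at -0.10. Without WT replicate 3 the class I median was -0.01, with 4 of 7 lower.

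The share of genes past an adjusted p of 0.05 in limma was 0% (0 of 19938), and 2.1% (419) had an unadjusted p under 0.05, among them the members Tap1 and Cd74. No gene of the 4 pathway lists passed. In the class I list 12 of 16 lay lower (median -0.07), with H2-T10 at -0.17 (SE 0.10), H2-M3 at -0.10 (SE 0.10) and the loading factor Pdia3 at -0.13 (SE 0.15). Without WT replicate 3 this list turned, with 6 of 16 lower and a median of 0.02. In the class II list 12 of 14 lay lower (median -0.03), with the peptide exchange factor subunit H2-DMa at -0.15 (SE 0.09), Ctss at -0.17 (SE 0.14) and H2-Eb1 at -0.13 (SE 0.17); without WT replicate 3 it was 9 of 14 (median -0.02). In the constitutive proteasome list 14 of 16 lay higher (median 0.14), with Psmb3 at 0.24 (SE 0.11), Psmb7 at 0.19 (SE 0.11) and Psmb6 at 0.26 (SE 0.16). Leaving out WT replicate 2 gave a median of 0.06 and leaving out WT replicate 3 one of 0.07, with 12 of 16 higher in each. Of the 14 measured genes of interferon gamma signalling and class II regulators 9 lay lower (median -0.05). Stat2, which carries interferon signals to the nucleus, was at -0.45 (SE 0.17). The kinase gene Jak2 was at -0.24 (SE 0.14) and the transcription factor gene Irf8 at 0.17 (SE 0.11). Stat2 and Jak2 both peaked on WT replicate 3, at 7.72 and 7.89. The next highest cardiomyocyte values were 7.10 for Stat2 and, on a KD array, 7.40 for Jak2. Their differences thus leaned on WT replicate 3. Leaving out that array gave a list median of -0.03, with 11 of 14 lower. Leaving out WT replicate 2 gave -0.11, with 8 of 14 lower.

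Macrophage markers moved with the class II members on these arrays. Of 12, 11 lay lower in KD, with a median of -0.24, and their mean, relative to the WT mean, lay at -0.01, -0.27 and 0.28 on the WT arrays and at -0.27, -0.19 and -0.29 on the KD arrays. It was lowest in WT at replicate 2, as the class II mean was. Without WT replicate 2 the macrophage median was -0.32, and without WT replicate 3 it was -0.09. Fibroblast and endothelial markers were lowest in WT at replicate 2 as well, with means of 0.24, -0.33 and 0.09 for fibroblast and 0.13, -0.16 and 0.03 for endothelial markers over the WT arrays; on the KD arrays they lay at -0.09, 0.13 and -0.12, and at -0.19, 0.02 and -0.04. Macrophage levels averaged below the array median in every cardiomyocyte array. B cell markers had a median of 0.02 and dendritic cell markers one of -0.02. The part of macrophage, fibroblast or endothelial RNA in the class II and class I differences was not tested.

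**Figure D3:**
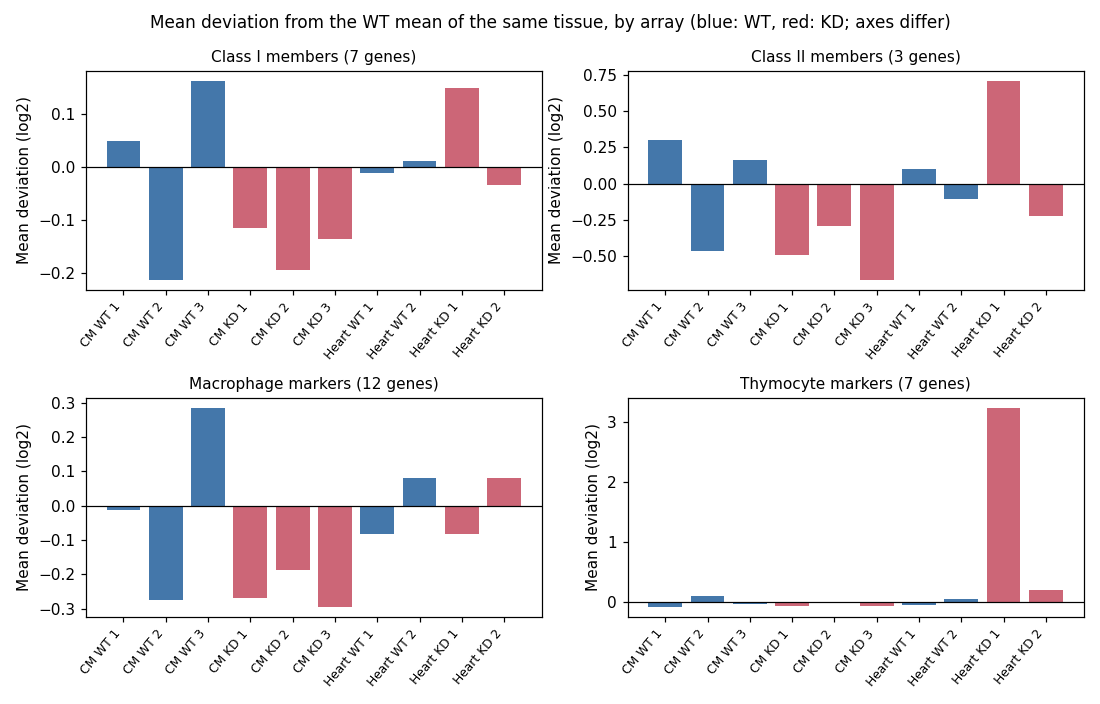
Mean deviation (log2, vertical axis) of the class I members, class II members, macrophage markers and thymocyte markers from the WT mean of the same tissue, 1 bar per array, blue for WT and red for KD; the vertical axes differ. WT cardiomyocyte replicate 2 lies with the KD cardiomyocytes in class I, class II and macrophage genes, and KD heart replicate 1 is high in class II and thymocyte genes.

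The same question was asked of whole hearts, where the class II members lay higher in KD, 3 of 3, with a median of 0.25, and the class I members in 6 of 7, with a median of 0.07; over all genes the median was 0.01. No member passed. The class II direction rested on KD heart replicate 1, the array with the thymocyte signal: without it the class II median was -0.23, with 3 of 3 lower, and the class I median 0.01.

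Cd74 averaged 10.20 ± 0.54 over the KD hearts and 9.92 ± 0.07 over the WT hearts (SD, n = 2 per genotype). The difference was 0.28 (SE 0.26), with an adjusted p of 1 in limma. KD replicate 1 lay 0.66 above the WT mean and KD replicate 2 lay 0.10 below it. H2-Aa differed by 0.25 (SE 0.30) and H2-Ab1 by 0.20 (SE 0.31), and in both KD replicate 1 was the highest heart array and KD replicate 2 the lowest. Without KD replicate 1 the differences were -0.10, -0.23 and -0.33 for Cd74, H2-Aa and H2-Ab1, which takes the spread of the lone KD array from the remaining groups.

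Of the class I members Psmb8 differed most, by 0.22 (SE 0.15), and by 0.003 without KD replicate 1. Tap2 followed that array as well, at 0.11 (SE 0.15) and -0.10 without it. Tap1 differed by -0.12 (SE 0.24), with KD replicate 1 the highest and KD replicate 2 the lowest heart array, and by -0.41 without KD replicate 1. Psmb9 and Tapbp had both KD arrays above both WT arrays, at 0.12 (SE 0.12) and 0.07 (SE 0.11); over all genes 14.2% did. Without KD replicate 1 they were 0.05 and 0.14. B2m and Psmb10 differed by 0.00 (SE 0.30 and 0.12), by 0.07 and 0.01 without that array, and both turned to -0.03 when arrays were centred on their medians.

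In hearts 0% of the 19938 genes passed in limma and 4.93% (982) had an unadjusted p under 0.05, none of them a member. No gene of the pathway lists passed. The class I list had a median of -0.01 (8 of 16 higher), and of -0.04 (7 of 16 higher) without KD replicate 1. The class I genes H2-Q2 and H2-M3 differed by 0.36 (SE 0.15) and 0.24 (SE 0.12), and Mr1, a related gene, by 0.27 (SE 0.20). Without KD replicate 1 these were 0.14, 0.18 and -0.11. The class II list had a median of 0.03 (10 of 14 higher), and of 0.01 (9 of 14 higher) without KD replicate 1. H2-DMa differed by 0.23 (SE 0.11) and by 0.21 without that array, and the protease gene Ctsl by 0.37 (SE 0.22) and -0.08. H2-Ob, a subunit of an inhibitor of peptide exchange, differed by -0.36 (SE 0.22), and by -0.72 without that array. The constitutive proteasome list lay lower in 12 of 16 (median -0.09), and in 11 of 16 (median -0.21) without KD replicate 1. The core subunit gene Psma1 was at -0.35 (SE 0.17), and the activator genes Psme3 and Psme4 at 0.40 (SE 0.14) and -0.27 (SE 0.15); without that array they were -0.56, 0.54 and -0.40. The list of interferon gamma signalling and regulators had a median of -0.01 (8 of 14 lower), and of -0.03 (10 of 14 lower) without it, with Stat2 at -0.35 (SE 0.20), Irf2 at 0.25 (SE 0.16) and Rfx5 at 0.18 (SE 0.11).

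Beside the class II values stand those of other cells. In KD heart replicate 1 Rag1 was 11.68, against 6.73 in KD replicate 2, and Cd8a 11.73 against 7.40. The macrophage mean lay at -0.08 in KD replicate 1 and 0.08 in KD replicate 2, so it did not go with the class II members there. The B cell mean was 0.18 and -0.41 in these arrays. Its member Ms4a1 was 7.39 and 5.79 there, against 7.25 and 7.27 in the WT hearts. Over all heart arrays 6 of 12 macrophage markers lay higher in KD (median -0.03) and 3 of 5 B cell markers lower (median -0.03). Without KD replicate 1, 7 of 12 macrophage markers lay higher (median 0.04) and 4 of 5 B cell markers lower (median -0.32). Of the dendritic cell markers 7 of 7 lay higher in KD hearts (median 0.08), while 6 of 6 fibroblast markers (median -0.29) and 6 of 6 endothelial markers (median -0.21) lay lower. Without KD replicate 1, 4 of 7 dendritic cell markers lay higher (median 0.08), and 6 of 6 fibroblast (median -0.32) and 5 of 6 endothelial markers (median -0.25) lay lower. The part of thymic or lymphoid RNA was not tested.

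**Figure D4:**
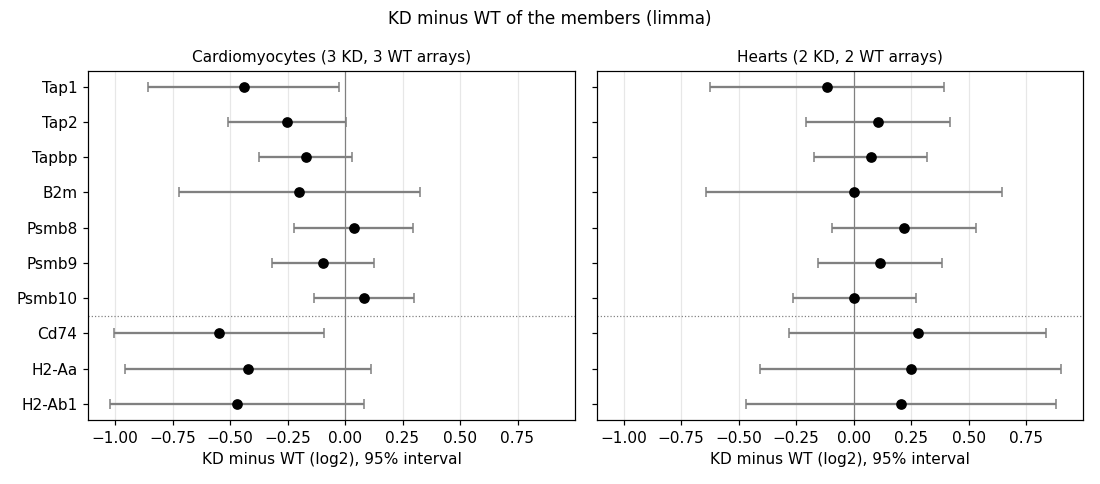
KD minus WT difference of each member (log2, horizontal axis) with its 95% confidence interval from limma, in cardiomyocytes and in hearts. The class II members are at -0.55 to -0.42 in cardiomyocytes and at 0.20 to 0.28 in hearts, and the intervals of all members except Tap1 and Cd74 in cardiomyocytes include 0.

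The difference between the KD effects, cardiomyocytes minus hearts, was tested directly. For Cd74 it was -0.83 (SE 0.33, 95% confidence interval -1.55 to -0.11), with an adjusted p of 0.999 in limma. It was -0.67 (SE 0.39) for H2-Aa and -0.67 (SE 0.40) for H2-Ab1. The class I members lay between -0.36 (SE 0.19) for Tap2 and 0.08 (SE 0.16) for Psmb10, with 6 of 7 below 0 and a median of -0.21. Of all genes 0% passed and 3.49% (696) had an unadjusted p under 0.05, Cd74 being the one member. Without KD heart replicate 1 the difference was -0.45 for Cd74, -0.20 for H2-Aa and -0.14 for H2-Ab1. The class I median was then -0.15, from -0.31 for Tapbp to 0.07 for Psmb10.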

How the data were processed

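RNA of cardiomyocytes and whole hearts was measured on Affymetrix arrays. For 35556 probe sets the authors deposited log2 intensities; RMA and Partek are named, with no version, per the submitters' processing notes. RMA makes arrays treated together alike in distribution and compresses differences of dim genes. Genes were named from the platform annotation (21789 probe sets with 1 symbol, 1621 with several and not used, 12146 with none), keeping per gene the probe set with the highest mean, which left 19938 genes.

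All 10 arrays were fitted in limma 3.58.1 (R 4.3.3) with 4 group means and an intensity trend in eBayes, with two-sided p-values and Benjamini-Hochberg adjustment over all genes at 0.05. With 3 against 3 arrays the smallest two-sided p of an exact permutation test is 0.1, hence the shared spread of limma. The code was tested on simulated data. Tissue levels were compared after subtracting each array's median over named genes, and after quantile normalization. Members, lists and motifs were chosen with earlier results of these data known. Genes named from the lists were up to 3 per list and tissue with the smallest p; others named (H2-Q4, Canx, Psme2, Ifi30, Ciita, Psmb5 and single markers) were chosen after their values were seen. Alternatives were normalization, the mean of probe sets, a filter on dim genes, fits on 1 tissue, array weights, no trend, the replicate number as a block, and leaving out each array; list counts without single arrays were added after seeing the data.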

Additional observations from a re-analysis of the deposited data

How the results depend on the processing

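Of 427 differences of single members under the alternatives, 412 kept their direction and 15 turned; none passed the threshold, and the smallest adjusted p was 0.124. Centring on array medians turned B2m and Psmb10 in hearts, to -0.0301 and -0.0290. The other reversals came with an array left out, where differences ranged from -0.580 to 0.0692 for B2m and from -0.0346 to 0.101 for Psmb8 in cardiomyocytes. In hearts the ranges were -0.41 to 0.18 for Tap1, -0.10 to 0.31 for Tap2, -0.14 to 0.15 for B2m, -0.0373 to 0.0446 for Psmb10, -0.10 to 0.66 for Cd74, -0.23 to 0.73 for H2-Aa and -0.33 to 0.74 for H2-Ab1. For the difference between the KD effects they were -0.583 to 0.0667 for B2m and -0.398 to 0.0340 for Psmb8. The class I median ranged from -0.192 to -0.0144 in cardiomyocytes and from 0.0122 to 0.179 in hearts, and the class II median of the difference between KD effects from -1.21 to -0.20. The class I median between tissues was -0.36 after quantile normalization, -1.39 in deposited values, and -0.26 to 0.15 with an array left out; the class II median was -3.60 and -4.44. With an array left out, 0 to 303 genes passed in hearts and 0 to 237 in the difference between KD effects, the most without KD heart replicate 2, which leaves replicate 1 alone. The replicate block gave 1 gene in hearts, no member, and changed no other call. Same-numbered arrays correlated at -0.0521 to 0.152 in cardiomyocytes and 0.234 in hearts. Differently numbered arrays correlated at -0.188 to 0.0663 in cardiomyocytes and -0.234 in hearts. With 2 heart arrays per genotype, the heart values are 1 number and its negative. These correlations do not settle whether the numbers are pairs. The labels state no pairs, so the main fit has no block. The cause of the shifts under the alternatives was not tested. Psmb8 was not tested under the filter on dim genes. No detection calls were used here, so it is not known which dim signals exceed background.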

Other observations

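With values centred on the mean of their tissue, the non-member genes whose pattern over the 10 arrays was most like the class I mean were Smc5 (Pearson r 0.955), Twistnb (0.953), Tut7 (0.930), Nsun2 (0.926) and Ago3 (0.921). For the class II mean they were Ppm1b (0.952), Itsn2 (0.944), Mcm4 (0.927), Vps33b (0.924) and Il4ra (0.919), a cytokine receptor chain gene. These are the highest of the 19938 genes after members, gene models, olfactory genes, small RNA genes and clone-style names were left out. The arrays share normalization and pooled RNA within a tissue, and the genes are given as a description.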
